A study of Homo sapiens with 372 samples.

Results

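The 10 glycolysis enzymes described here were chosen by symbol and were all found among the 9664 genes of the deposited table. They are HK1, HK2, GPI, PFKP, ALDOA, GAPDH, PGK1, ENO1, PKM and LDHA. Expression was measured by single-cell RNA-seq in A2780, an established human ovarian endometrioid adenocarcinoma cell line, with the full-length Smart-seq2 method on the Fluidigm C1 system. The 6 conditions, by their labels, were Ctrl (control, 46 cells used), Pac16h (paclitaxel, 5 nM, 16 h, 56 cells), Pac48h (the same dose, 48 h, 53 cells), Cele2h (celecoxib, 75 µM, 2 h, 63 cells), cele16h (the same dose, 16 h, 61 cells) and PacCele16h (5 nM paclitaxel plus 75 µM celecoxib, 16 h, 59 cells). Paclitaxel stabilizes microtubules, and celecoxib inhibits cyclooxygenase-2. The labels name no replicate culture or capture run. The code that opens the sample descriptions is 1 per condition and differs between conditions, and what it marks is not given. A condition therefore counts as 1 sample, its cells are not replicates, and no p-value was computed between conditions. A condition and what this code marks cannot be told apart. The SD given with a mean is the spread over cells.

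Glycolysis splits glucose into pyruvate in the cytosol and yields a small amount of ATP and NADH. Many cancer cells run the pathway fast even when oxygen is present and turn pyruvate into lactate, which regenerates the NAD+ that the GAPDH step consumes. Most of its genes are known targets of the hypoxia-inducible factor HIF-1 and of MYC, which bind short DNA motifs near the start sites.

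The promoters below are shown because they hold the motifs through which these factors are known to bind glycolysis genes. Capitals mark the core of the HIF-1 site (ACGTG or GCGTG) and the E-box of MYC (CACGTG), read on both strands, so that CACGT and CACGC are matches on the opposite strand. CACGTG contains ACGTG on each strand, and the motifs therefore overlap. Each sequence is the 250 bases before a RefSeq start site on GRCh38.p14, written 5′ to 3′ on the strand of the gene.
LDHA (chr11:18394313-18394562, plus strand): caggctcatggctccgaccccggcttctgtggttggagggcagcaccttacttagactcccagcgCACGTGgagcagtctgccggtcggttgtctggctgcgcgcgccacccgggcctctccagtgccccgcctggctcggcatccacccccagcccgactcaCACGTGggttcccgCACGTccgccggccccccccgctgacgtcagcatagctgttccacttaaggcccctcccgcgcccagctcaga
PGK1 (chrX:78103998-78104247, plus strand): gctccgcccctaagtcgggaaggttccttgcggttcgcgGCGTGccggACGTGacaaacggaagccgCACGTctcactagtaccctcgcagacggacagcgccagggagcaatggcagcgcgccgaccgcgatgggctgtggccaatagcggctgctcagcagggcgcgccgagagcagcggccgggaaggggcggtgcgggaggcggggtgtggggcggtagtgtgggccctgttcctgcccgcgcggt
HK2 (chr2:74834920-74835169, plus strand): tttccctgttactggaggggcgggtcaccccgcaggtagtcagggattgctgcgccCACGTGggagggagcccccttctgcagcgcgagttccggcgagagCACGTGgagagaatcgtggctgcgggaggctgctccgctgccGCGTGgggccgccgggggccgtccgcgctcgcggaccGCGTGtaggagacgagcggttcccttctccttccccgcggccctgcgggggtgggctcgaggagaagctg
ALDOA (chr16:30065510-30065759, plus strand): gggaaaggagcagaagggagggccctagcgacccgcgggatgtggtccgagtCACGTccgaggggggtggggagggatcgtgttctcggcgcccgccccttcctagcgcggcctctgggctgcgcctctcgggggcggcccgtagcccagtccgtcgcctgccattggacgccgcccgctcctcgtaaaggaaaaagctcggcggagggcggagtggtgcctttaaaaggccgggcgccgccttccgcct

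RefSeq promoters were matched for 10 of 10 enzymes, with 23 start sites. ACGTG was present before 10 of the 23 start sites, in 7 of the 10 enzymes. The share over all 35116 promoters of the same length was 18.5%. CACGTG was present before 4 start sites of 4 enzymes, against 6.34% of all promoters. Either core, ACGTG or GCGTG, was found before 14 start sites of 9 enzymes, and 43.2% of all promoters held it. PKM was the enzyme without a match in this window. The only windows of GPI, ENO1 and PKM lay with all 250 bases in annotated exons of the same gene. A window of HK1 had 230 and a window of ALDOA 225 such bases. Matches or their absence in these windows thus do not describe sequence upstream of the whole gene. The windows printed for PGK1, HK2 and ALDOA also lie inside the gene model, before a later start site. The window of HK2 that ends where its gene model begins (chr2:74833877-74834126) is not printed. It held 3 matches to either core and no CACGTG. Enzymes with several start sites had more windows in which a match could fall. A match is a stretch of letters and no evidence of binding in these cells.

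Read numbers per cell are not known here. The depth was described by the genes detected, whose median per condition lay between 6126 and 6630. The summed level of all genes differed between conditions on the spike-in scale. The median cell total was 0.504 and 0.643 of that of control cells in Pac16h and Pac48h cells, 0.591 and 0.348 in Cele2h and cele16h cells, and 1.40 in PacCele16h cells. The counts over the 10 enzymes are therefore given on 2 scales, as deposited and after every cell was set to the same total. Of 9 markers chosen for epithelial cells or the ovarian line, VIM had a mean E-value between 1.90 and 3.70 and KRT18 between 0.45 and 1.11. The symbols of the other 7 were not among the genes of the deposited table. Of 8 markers of blood, endothelial and stromal cells, LYZ and COL1A2 were listed, with mean E-values of at most 0.24 and 0.96. The other 6 were likewise absent from it.

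In control cells, the enzymes of the later steps were among the most abundant transcripts, whereas those of the entry steps were detected in only part of the cells. The E-value is log2(N/10 + 1), where N is the spike-in normalized TPM, a measure per transcript length, so levels can be compared between genes. GAPDH, which oxidizes glyceraldehyde 3-phosphate, had a mean E-value of 10.34 ± 0.74 (SD over 46 cells) and ranked 2 of all genes by mean N, at 14366 normalized TPM. The aldolase ALDOA (8.36 ± 0.78), the lactate dehydrogenase LDHA (8.20 ± 1.13) and the enolase ENO1 (8.08 ± 1.09) followed, and differed from each other by less than their SD over cells. The phosphoglycerate kinase PGK1 (6.27 ± 0.82) and the pyruvate kinase PKM (5.59 ± 0.86) were lower, and the glucose-6-phosphate isomerase GPI was at 3.75 ± 1.28. The hexokinases HK1 (1.28 ± 1.01) and HK2 (0.49 ± 0.59) and the phosphofructokinase PFKP (1.22 ± 1.47) lay at the bottom of the order. Their order is not set apart, because each SD is about as large as the mean or larger.

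**Figure D1:**
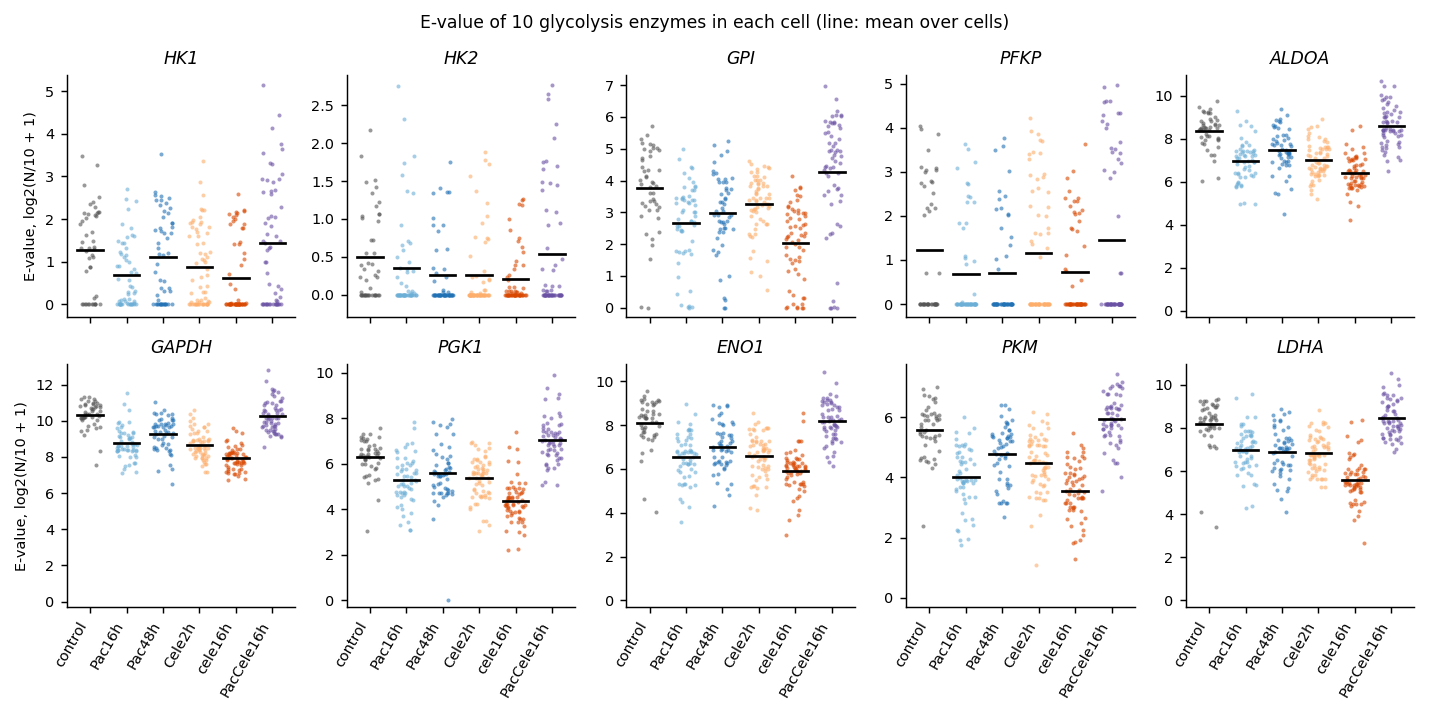
Each point is 1 cell, with the E-value, log2(N/10 + 1), of 1 enzyme on the vertical axis and the 6 conditions on the horizontal axis, and the black line is the mean over cells. The lines of GAPDH run from 10.34 in control cells down to 7.92 in cele16h cells and back to 10.28 in PacCele16h cells.

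Compared to control cells, most of the enzymes had lower E-values after each drug alone, with the lowest levels in cele16h cells, and were near the control level in PacCele16h cells. On the deposited scale, the number of enzymes lower by more than 1.5-fold was 8 of 10 in Pac16h cells (37.3% of all genes), 7 in Pac48h cells (26.6%), 6 in Cele2h cells (25.7%), 8 in cele16h cells (43.9%) and 0 in PacCele16h cells (1.76%). None was higher by more than 1.5-fold in Pac16h (0.0932% of all genes), Pac48h (0.922%), Cele2h (1.12%) or cele16h cells (0.383%). In PacCele16h cells, 1 enzyme, PGK1, was higher by this limit, against 30.4% of all genes. The median difference over the enzymes was -1.14, -0.79, -1.02, -1.92 and 0.23 for Pac16h, Pac48h, Cele2h, cele16h and PacCele16h cells. The corresponding medians over all genes were -0.41, -0.26, -0.26, -0.48 and 0.33. The E-value understates differences of low genes, and all genes were not matched to the enzymes for level on either scale. The gap between these medians therefore holds an effect of level. On the log2 scale, the median cell total differed from that of control cells by -0.99, -0.64, -0.76, -1.52 and 0.49. All 5 comparisons share the same control cells.

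With every cell at the same total, the enzymes were still mostly below control cells, by less. Those lower by more than 1.5-fold were 4 in Pac16h cells (10% of all genes), namely ALDOA, GAPDH, ENO1 and PKM, and 1 in Pac48h cells (5.78%), which was LDHA. In Cele2h cells they were ALDOA, GAPDH, ENO1 and LDHA, 4 in number (8.12%). In cele16h cells there were 5 (7.95%), with GPI and PKM in addition to GAPDH, ENO1 and LDHA. In PacCele16h cells they were GAPDH and ENO1, 2 in number (5.8%). None was higher by more than 1.5-fold in any treatment, against 1.4%, 3.28%, 3.31%, 7.37% and 5.96% of all genes in the same order. The median difference over the enzymes was -0.39, -0.23, -0.45, -0.58 and -0.22, and over all genes -0.07, 0.00, -0.02, 0.03 and 0.02. In PacCele16h cells the enzymes were thus above control cells as deposited and below them once totals were equal, with a difference under 0 in 1 and 9 of the 10 enzymes, respectively.

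**Figure D2:**
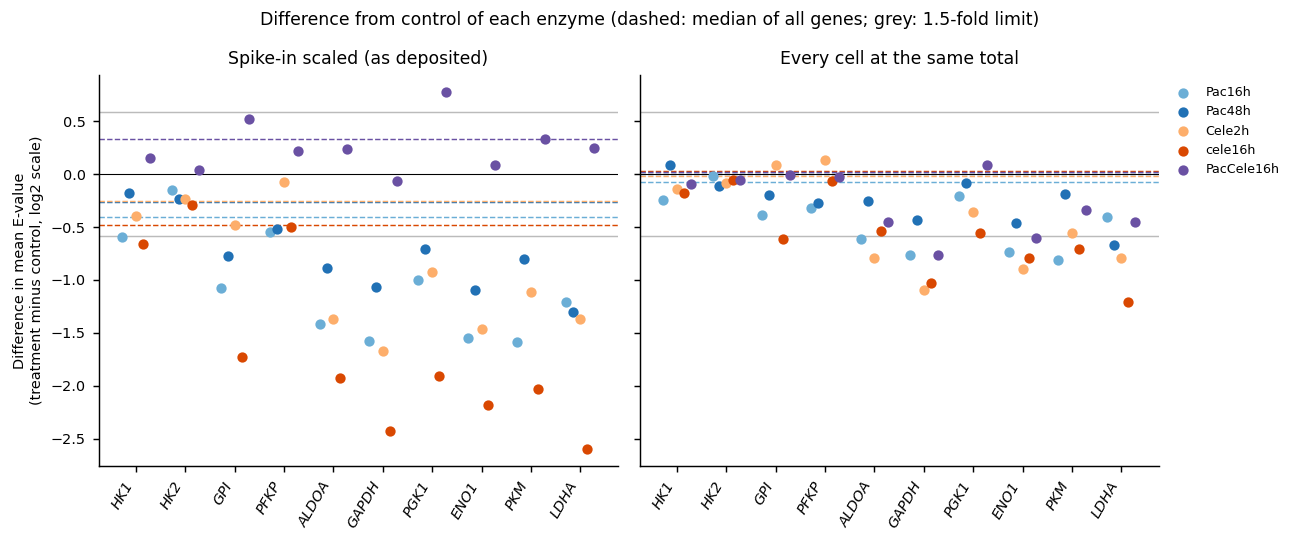
Difference in mean E-value between each treatment and control cells (vertical axis, log2 scale) for the 10 enzymes (horizontal axis), on the deposited scale (left) and with every cell at the same total (right); dashed lines are the medians of all genes and grey lines the 1.5-fold limit. In cele16h cells LDHA lies at -2.59 on the left and -1.21 on the right, and the purple points of PacCele16h cells move from above 0 on the left to mostly below 0 on the right.

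HK1 and HK2 phosphorylate glucose and hold it in the cell. HK1 (chr10:69269984-69401884, hg38) was detected in 73.9% of control cells (exact Clopper-Pearson 95% interval 58.9 to 85.7%, counting error only) and in 42.6% (30.0 to 55.9%) in cele16h cells. In the other 4 conditions, HK1 was detected in 69.5 to 71.4% of cells. The mean E-value of HK1 was 0.69 ± 0.77 in Pac16h cells, 1.11 ± 1.02 in Pac48h cells, 0.89 ± 0.91 in Cele2h cells, 0.62 ± 0.88 in cele16h cells, and 1.44 ± 1.43 in PacCele16h cells. HK2 (chr2:74834127-74893359), the inducible form, was detected in 60.9% (45.4 to 74.9%) of control cells and in 35.8 to 49.2% of the cells of the treatments. At the same total the differences of HK1 lay between -0.24 and 0.09 and those of HK2 between -0.11 and -0.01, within the spread of these weakly detected genes. In mean N, HK2 made up 20.9% of the sum of the pair in control cells. HK2 made up 33.5% in Pac16h cells and between 13.4 and 18.5% in the other treatments.

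GPI turns glucose 6-phosphate into fructose 6-phosphate (chr19:34359480-34402413). Its E-value had a median of 3.91 in control cells (0.00 to 5.73), 2.95 in Pac16h cells (0.00 to 4.99) and 3.03 in Pac48h cells (0.00 to 5.24), 3.38 in Cele2h cells (0.55 to 4.63) and 2.24 in cele16h cells (0.00 to 4.16), and 4.70 in PacCele16h cells (0.00 to 6.99). All ranges overlapped. GPI was the enzyme that differed most between the celecoxib times at the same total, where cele16h cells differed from Cele2h cells by -0.70. No other enzyme passed the 1.5-fold limit in this comparison (3.9% of all genes were lower and 7.88% higher), while 6 enzymes were lower and 0 higher as deposited (19.4% and 0.528% of all genes).

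PFKP, the platelet-type subunit of phosphofructokinase, the committed step of the pathway (chr10:3066333-3137718), was detected in 45.7% of control cells (30.9 to 61.0%) and in 32.1 to 44.4% of the cells of the treatments, so that its median E-value was 0 in all 6 conditions. In mean N, PFKP held 28.8% of the phosphofructokinase transcripts in control cells, 22.7% and 14.8% in Pac16h and Pac48h cells, 28.0% and 27.0% in Cele2h and cele16h cells, and 23.6% in PacCele16h cells. The muscle-type PFKM held the largest share in every condition, 50.0% in control cells and up to 60.6% in Pac48h cells, and the liver-type PFKL the rest. PFKM was higher than in control cells by 0.88 in PacCele16h cells and lower by 0.74 in cele16h cells. These differences were 0.30 and 0.04 at the same total. PFKM overlaps SENP1 on the opposite strand, and Smart-seq2 keeps no strand, so reads of the overlap cannot be told apart. SENP1 differed from control cells by 0.17 in PacCele16h cells and -0.48 in cele16h cells, and by -0.14 and 0.08 at the same total.

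ALDOA splits fructose 1,6-bisphosphate (chr16:30064164-30070457). Its E-value had a median of 8.48 in control cells (6.02 to 9.74), 6.98 in Pac16h cells (4.95 to 9.31) and 7.45 in Pac48h cells (4.51 to 9.38), 6.87 in Cele2h cells (5.20 to 8.92) and 6.36 in cele16h cells (4.24 to 8.60), and 8.43 in PacCele16h cells (6.49 to 10.67). ALDOA was detected in all 338 cells. It differed from control cells by -1.42, -0.89, -1.37, -1.93 and 0.24 on the deposited scale, and by -0.61, -0.26, -0.79, -0.54 and -0.46 at the same total.

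Another aldolase had a mean E-value above that of control cells in each treatment on both scales, whereas ALDOA was below it except in PacCele16h cells as deposited. ALDOC, an aldolase known from brain (chr17:28573115-28576948, minus strand), was detected in 1 of 46 control cells, 2.17% (0.055 to 11.5%). It was detected in 18 of 56 Pac16h cells (32.1%, 20.3 to 46.0%), 24 of 53 Pac48h cells (45.3%, 31.6 to 59.6%), 16 of 63 Cele2h cells (25.4%, 15.3 to 37.9%), 8 of 61 cele16h cells (13.1%, 5.84 to 24.2%) and 25 of 59 PacCele16h cells (42.4%, 29.6 to 55.9%). The deposited table lists genes detected in more than 30% of the cells of any condition. ALDOC passed this limit only in Pac16h, Pac48h and PacCele16h cells. It is thus listed only through treatments where it was high, and a level above control cells there is partly built into its listing. The mean E-value of ALDOC was 0.06 ± 0.38 in control cells and reached 1.57 ± 1.92 in Pac48h cells and 1.93 ± 2.40 in PacCele16h cells. On the deposited scale it was higher than in control cells by more than 1.5-fold in Pac16h, Pac48h and PacCele16h cells. The differences from control cells at the same total were 0.87, 1.52, 0.55, 0.38 and 1.33. Even at its highest share, 3.01% in Pac48h cells, ALDOC was a small part of the aldolase transcripts. ALDOC overlaps an annotated gene without a symbol on the opposite strand. ALDOA overlaps such genes on both strands, and LDHB such a gene on the same strand. None of these is among the genes listed, and reads of the overlaps cannot be told apart.

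**Figure D3:**
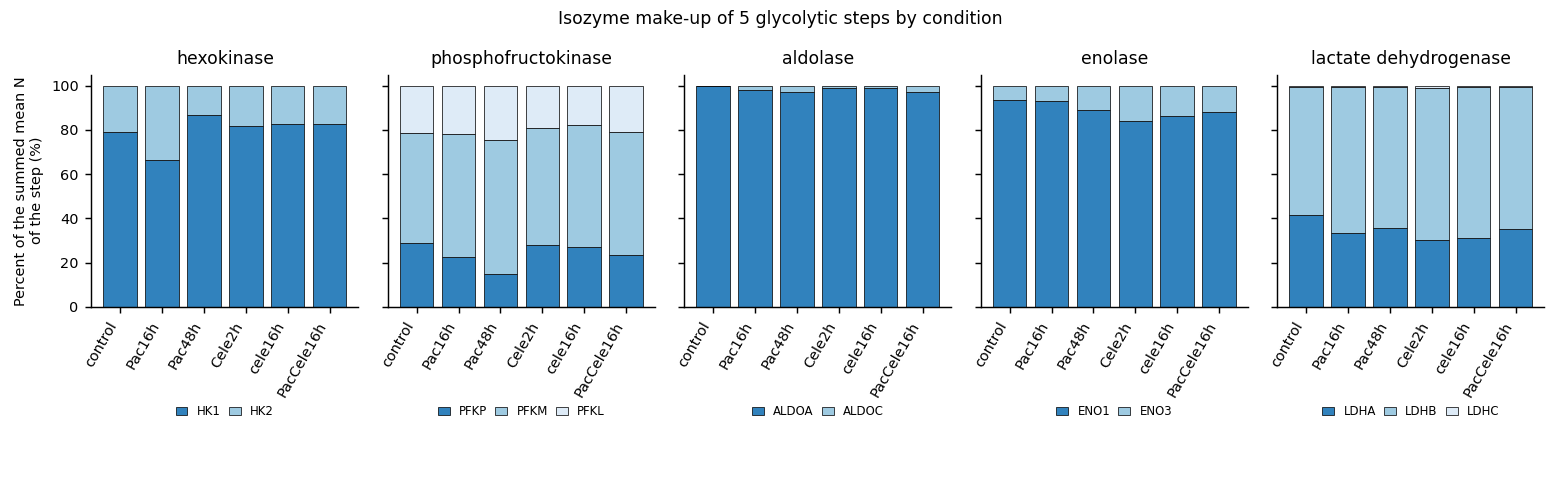
Stacked bars give the percent of the summed mean N of a step held by each isozyme in the 6 conditions, for 5 steps with more than 1 isozyme listed. PFKM holds 50.0 to 60.6% of phosphofructokinase, ALDOC at most 3.01% of aldolase, and LDHA falls from 41.6% of lactate dehydrogenase in control cells to between 30.3 and 35.7% in the treatments.

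GAPDH oxidizes glyceraldehyde 3-phosphate and makes NADH (chr12:6534512-6538374). Its E-value had a median of 10.36 in control cells (7.57 to 11.34), 8.62 in Pac16h cells (7.11 to 11.54) and 9.46 in Pac48h cells (6.52 to 11.03), 8.52 in Cele2h cells (7.16 to 10.59) and 7.94 in cele16h cells (6.71 to 9.60), and 10.15 in PacCele16h cells (8.55 to 12.81). The ranges overlapped in all conditions. In mean N, control cells exceeded cele16h cells by 5.41-fold and Cele2h cells by 3.06-fold. Among the 9655 genes past the detection limit, GAPDH had rank 59 from the lowest difference in Cele2h cells and rank 67 in cele16h cells, and at the same total rank 85 and rank 178. As a share of the cell total, which does not depend on the spike-in, GAPDH held a median of 0.893% in control cells (0.544 to 1.30%), 0.524% and 0.669% in Pac16h and Pac48h cells, 0.432% and 0.431% in Cele2h and cele16h cells, and 0.491% in PacCele16h cells. The share was below that of the lowest control cell in 54 of 63 Cele2h cells, 47 of 61 cele16h cells, 39 of 59 PacCele16h cells, 31 of 56 Pac16h cells and 17 of 53 Pac48h cells. GENCODE version 44 names 65 pseudogenes of GAPDH, none of them among the genes listed, so its level is uncertain to the extent that reads were divided with them. The same holds for LDHA with 6 named pseudogenes, PKM with 5, ENO1 with 4, ALDOA and PGK1 with 2 each and HK2 with 1.

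PGK1 transfers a phosphate to ADP and makes ATP (chrX:77910739-78129295). Its E-value had a median of 6.39 in control cells (3.05 to 7.56), 5.25 in Pac16h cells (3.06 to 7.83) and 5.53 in Pac48h cells (0.00 to 7.96), 5.53 in Cele2h cells (3.04 to 6.93) and 4.22 in cele16h cells (2.22 to 7.40), and 7.01 in PacCele16h cells (5.04 to 9.88). PacCele16h cells were the highest, although the groups overlapped, and PGK1 was higher than in control cells by 0.77 as deposited and 0.08 at the same total. In cele16h cells it differed by -1.91 and -0.56. The gene model of PGK1 overlaps ATP7A on the same strand. ATP7A was low, with a mean E-value between 0.17 and 0.44 in all conditions.

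ENO1 turns 2-phosphoglycerate into phosphoenolpyruvate (chr1:8861000-8879190, minus strand). It had a median E-value of 8.33 in control cells (4.01 to 9.58), 6.69 in Pac16h cells (3.57 to 8.96) and 6.99 in Pac48h cells (4.30 to 8.92), 6.75 in Cele2h cells (4.13 to 8.54) and 6.00 in cele16h cells (2.97 to 8.55), and 8.19 in PacCele16h cells (6.14 to 10.40). Like GAPDH, ENO1 was lower than in control cells by more than 1.5-fold at the same total in Pac16h cells (-0.74), Cele2h cells (-0.89), cele16h cells (-0.79) and PacCele16h cells (-0.60). Its isozyme ENO3, the muscle enolase, made up 6.67% of the enolase transcripts in control cells, 7.07% and 11.0% in Pac16h and Pac48h cells, 15.9% and 13.8% in Cele2h and cele16h cells, and 12.0% in PacCele16h cells. ENO3 overlaps PFN1, an abundant actin-binding gene on the opposite strand, so part of its reads cannot be told apart from those of PFN1. PFN1 differed from control cells by -1.16, -1.38, -1.23, -2.18 and 0.03 on the deposited scale, against -1.42, 0.02, 0.02, -0.76 and 1.17 for ENO3. With equal totals the differences were -0.35, -0.76, -0.66, -0.78 and -0.66 for PFN1 and -0.79, 0.55, 0.53, 0.43 and 0.53 for ENO3.

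PKM makes pyruvate and ATP (chr15:72199029-72231819, minus strand). Its E-value had a median of 5.72 in control cells (2.37 to 7.02), 3.94 in Pac16h cells (1.76 to 6.00) and 5.00 in Pac48h cells (2.69 to 6.40), 4.53 in Cele2h cells (1.08 to 6.17) and 3.54 in cele16h cells (1.28 to 5.47), and 5.93 in PacCele16h cells (3.54 to 7.44). PKM was the enzyme that differed most between the times of paclitaxel. Pac48h cells were higher than Pac16h cells by 0.78 as deposited (7.89% of all genes were higher by over 1.5-fold) and by 0.62 at the same total (6.18%). It was the only one of the 10 enzymes past the limit in this comparison on either scale, with 0 lower (0.352% and 1.18% of all genes). The values are of the gene as a whole, and its splice forms were not analysed here.

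LDHA turns pyruvate into lactate (chr11:18394560-18408425). Its E-value had a median of 8.40 in control cells (3.41 to 9.33), 7.04 in Pac16h cells (4.28 to 9.57) and 7.04 in Pac48h cells (4.12 to 8.87), 6.76 in Cele2h cells (5.24 to 8.84) and 5.49 in cele16h cells (2.65 to 8.38), and 8.34 in PacCele16h cells (6.88 to 10.56). The cele16h cells were the lowest, although their range overlapped that of control cells, where LDHA was as low as 3.41. In cele16h cells LDHA had the lowest difference of the 10 enzymes on both scales, -2.59 as deposited (rank 41 from the lowest of 9655 genes) and -1.21 at the same total (rank 95). In mean N, control cells exceeded these cells by 5.60-fold. LDHA was also the enzyme past the limit at the same total in Pac48h cells (-0.67), where it differed from Pac16h cells by -0.27.

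LDHB, the heart-type subunit of lactate dehydrogenase, had a higher difference from control cells than LDHA in each treatment on both scales. The share of LDHA in the lactate dehydrogenase transcripts was 41.6% in control cells, 33.3% and 35.7% in Pac16h and Pac48h cells, 30.3% and 31.0% in Cele2h and cele16h cells, and 35.3% in PacCele16h cells. LDHB held nearly all of the rest, and the testis form LDHC less than 1% in each condition. LDHB differed from control cells by -0.72, -0.91, -0.73, -1.86 and 0.57 on the deposited scale, and LDHA by -1.21, -1.30, -1.37, -2.59 and 0.24. With totals made equal, LDHB differed by 0.09, -0.28, -0.16, -0.47 and -0.12, so that its direction changed in Pac16h and PacCele16h cells, and LDHA by -0.40, -0.67, -0.80, -1.21 and -0.45.

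Together, the 10 enzymes held a median of 1.72% of the cell total in control cells (quartiles 1.48 to 1.86%, range 0.793 to 2.44%). The median share was 1.04% (0.885 to 1.18%) in Pac16h cells, 1.18% (1.03 to 1.52%) in Pac48h cells, 0.895% (0.740 to 1.01%) in Cele2h cells, 0.874% (0.740 to 1.01%) in cele16h cells, and 1.04% (0.916 to 1.15%) in PacCele16h cells. The share was below the control median in 52 of 56 cells, 44 of 53 cells, 61 of 63 cells, 58 of 61 cells and 55 of 59 cells, respectively. The medians of the treatments lay below the control median by 0.541 to 0.847 percentage points, which was more than the control SD over cells of 0.351 and, except in Pac48h cells (SD of 0.768), more than the SD of the treatment. Neighbours in the order of the treatments, from cele16h to Pac48h cells, differed by less than their SD. The labels give each cell a library index number, and these were divided here into consecutive blocks of 96. All control cells fell in 1 block, block 4, which they share with 31 of the 53 Pac48h cells. The median share in Pac48h cells was 1.22% in block 4 and 1.03% in the 22 cells of block 2, and that of PacCele16h cells was 1.05% in block 1 and 1.01% in block 3. No other treatment had cells in the block of the control cells. The combination had a higher cell total than control cells and a lower share of the enzymes, and the single drugs had a lower total and a lower share. Within control cells the share was higher in cells of higher total (Pearson's r = 0.66, Spearman's rho = 0.57 over 46 cells of 1 condition). In the treatments Spearman's rho was between -0.07 and 0.36, and the part of the cell total in the differences between conditions was not tested.

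**Figure D4:**
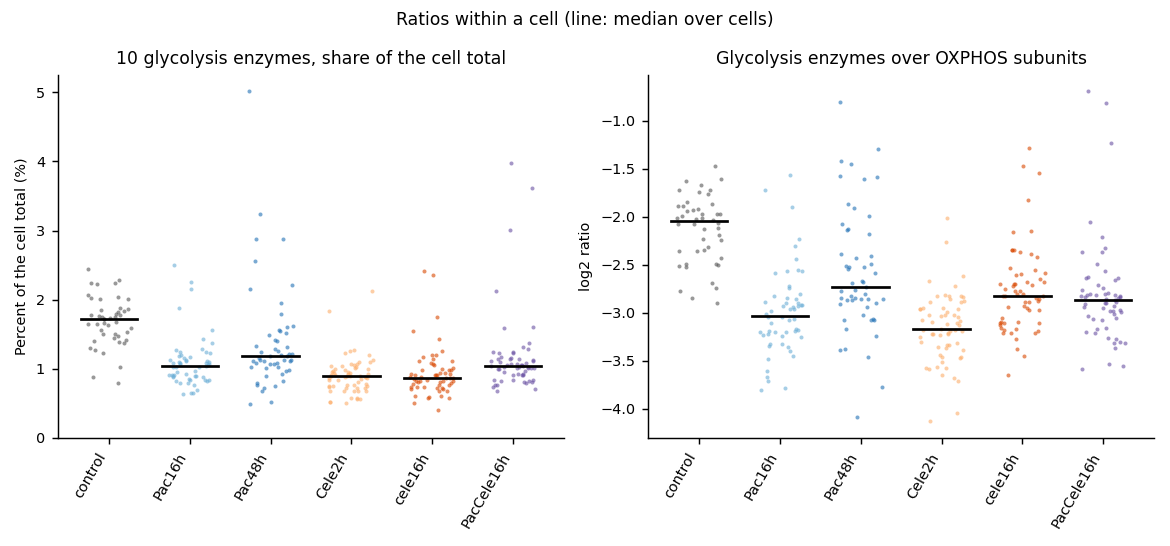
Each point is 1 cell, with the percent of its total held by the 10 enzymes (left) and the log2 ratio of their sum to the sum of 77 OXPHOS subunits (right), by condition; lines are medians. The control median of 1.72% lies above the medians of the 5 treatments, which run from 0.874 to 1.18%, and a few Pac48h and PacCele16h cells lie above all control cells.

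A small number of treated cells had a high share of the enzymes. In Pac48h cells 5 of 53 cells lay above the highest control cell, and the highest held 5.03% of its total in the enzymes and 2.93% in GAPDH alone. Its total was below the control median by 1.09 on the log2 scale, with 5208 genes detected. In PacCele16h cells 3 of 59 cells lay above all control cells, at 3.97%, 3.61% and 3.01%. The cell at 3.01% came from the only retained well that the labels note as holding no cell, and without it 2 of 58 cells lay above all control cells. In Pac16h cells 1 of 56, and in Cele2h and cele16h cells 0, lay above all control cells.

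Nuclear genes of oxidative phosphorylation (OXPHOS), which encode subunits of the respiratory chain and ATP synthase, were the reference within the same cell. The log2 ratio of the summed enzymes to 77 summed subunits had a median of -2.05 in control cells (-2.90 to -1.47), -3.03 in Pac16h cells (-3.80 to -1.56), -2.74 in Pac48h cells (-4.09 to -0.80), -3.16 in Cele2h cells (-4.13 to -2.01), -2.82 in cele16h cells (-3.65 to -1.29), and -2.87 in PacCele16h cells (-3.58 to -0.69). It was below the control median in 53 of 56, 43 of 53, 62 of 63, 57 of 61 and 56 of 59 cells. The OXPHOS subunits themselves held 7.18% of the total in control cells, 8.35% and 7.60% in Pac16h and Pac48h cells, 7.78% and 6.05% in Cele2h and cele16h cells, and 7.57% in PacCele16h cells. In cele16h cells both groups thus had a lower share than in control cells, whereas in the other treatments the enzymes were lower and the subunits higher. All 77 subunits were lower by more than 1.5-fold in cele16h cells as deposited (43.9% of all genes) and 18 at the same total (7.95%). In PacCele16h cells 54 were higher as deposited (30.4% of all genes), and the 5 higher at the same total were near the share over all genes (5.96%).

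When the treatments were compared with each other, 9 of 10 enzymes were higher in PacCele16h than in Pac16h cells as deposited (62.5% of all genes), and 0 with equal totals (9.57%). Against cele16h cells, 9 enzymes were higher in PacCele16h cells as deposited (66%) and 3 with equal totals (5.03%). These 3 were LDHA (0.76), PGK1 (0.64) and GPI (0.60). None was lower in either comparison, against 0.0311% and 0.0414% of all genes as deposited and 1.64% and 4.39% with equal totals. HK2 was the enzyme that did not pass the limit in either comparison, with differences of 0.19 and 0.34 on the deposited scale.

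Over the cells of a condition, the 7 abundant enzymes (GPI, ALDOA, GAPDH, PGK1, ENO1, PKM and LDHA) varied together, with GPI the weakest at the same total. The median Spearman's rho of their 21 pairs was 0.76 in control cells as deposited and 0.44 at the same total. At the same total it was 0.39 and 0.45 in Pac16h and Pac48h cells, 0.22 and 0.28 in Cele2h and cele16h cells, and 0.28 in PacCele16h cells. The cells of a condition count as 1 sample, and their totals set part of the correlation on the deposited scale. The highest mean rho over the 6 conditions at the same total was 0.48, for ALDOA with GAPDH and for GAPDH with ENO1, which ranged from 0.45 to 0.50 for the latter pair. ENO1 with LDHA had a mean rho of 0.46 and PGK1 with LDHA of 0.44. GPI stood apart in this mean over 6 conditions, with at most 0.14 to any other enzyme. In control cells, however, the lowest rho of the 21 pairs at the same total was 0.24, for GPI with LDHA. The lowest pair of each treatment also held GPI. Its rho was -0.06 and -0.23 in Pac16h and Pac48h cells, -0.27 and 0.04 in Cele2h and cele16h cells, and -0.12 in PacCele16h cells.

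**Figure D5:**
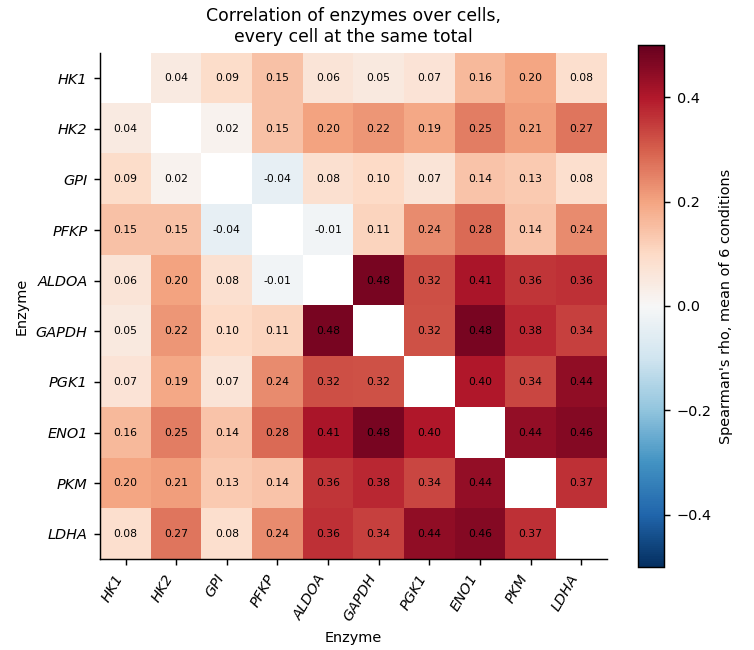
Matrix of Spearman's rho between the 10 enzymes over the cells of a condition, with every cell at the same total, as the mean of 6 conditions (colour scale from -0.5 to 0.5). The block from ALDOA to LDHA is the darkest, with 0.48 for ALDOA with GAPDH, and GPI, HK1 and PFKP are paler.

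Outside the lists, the genes whose E-value at the same total followed the mean of the enzymes most closely were PHLDA2 (mean rho of 0.38 over 6 conditions), MIF (0.34), HBQ1 (0.33), HPRT1 (0.33) and EIF5A (0.33). Over 5484 candidate genes the median was 0.013 and the 99th percentile 0.257. MIF encodes a cytokine, HPRT1 an enzyme of purine salvage and EIF5A a translation factor.

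The enzymes of the same pathway outside the 10 were mixed. Of 13 listed, 6 were lower by more than 1.5-fold in Pac16h cells (37.3% of all genes), 4 in Pac48h cells (26.6%), 4 in Cele2h cells (25.7%), 9 in cele16h cells (43.9%) and 0 in PacCele16h cells (1.76%), where 6 were higher (30.4%). At the same total 2, 0, 0, 0 and 0 were lower (10%, 5.78%, 8.12%, 7.95% and 5.8% of all genes) and 1, 1, 0, 2 and 2 higher (1.4%, 3.28%, 3.31%, 7.37% and 5.96%). The triose phosphate isomerase TPI1, the phosphoglycerate mutase PGAM1 and LDHB, which are as abundant as the enzymes around them, had the lowest differences of this list, -1.61, -1.95 and -1.86 in cele16h cells, and -0.22, -0.56 and -0.47 at the same total. The highest differences in PacCele16h cells were those of ALDOC (1.87, and 1.33 at the same total), ENO3 (1.17 and 0.53) and BPGM, which makes 2,3-bisphosphoglycerate in red cells (1.12 and 0.65).

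The shares over all genes just given are the background of the other lists too. Of 5 listed genes of glucose and lactate transport, 3, 2, 1, 2 and 0 were lower as deposited in Pac16h, Pac48h, Cele2h, cele16h and PacCele16h cells, and 1 was higher, in PacCele16h cells. In cele16h cells at the same total, 3 of the 5 were higher (7.37% of all genes). Their differences reached from -0.38 to 0.84, where those of the 10 enzymes reached from -1.21 to -0.05. Among 14 regulators of the pathway, 4, 2, 3, 4 and 0 were lower as deposited and 1 was higher, in PacCele16h cells. HIF1A, the oxygen-regulated subunit of HIF-1, differed by -1.51 in cele16h cells and -0.61 at the same total, and MYC by -1.19 and -0.71 in Pac16h cells. ARNT, the other subunit of HIF-1, differed by 0.91 in PacCele16h cells and 0.44 at the same total. The mean E-value of HIF1A was 2.98 in control and 2.82 in PacCele16h cells as deposited, and 2.54 and 1.95 at the same total. That of MYC at the same total was 2.01 in control, 1.38 in Cele2h and 1.86 in PacCele16h cells. HIF1A and MYC were below control cells in every treatment at the same total.

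Of 12 HIF target genes outside glycolysis, 9 were higher in PacCele16h cells as deposited (30.4% of all genes) and 3 at the same total (5.96%). These were the collagen hydroxylases P4HA1 (1.54, and 0.87 at the same total), P4HA2 (1.39 and 0.82) and PLOD1 (1.18 and 0.61). None of the 12 was higher as deposited with a single drug, and 2, 0, 2 and 4 were lower in Pac16h, Pac48h, Cele2h and cele16h cells. At the same total, higher levels were not particular to PacCele16h cells. The mean E-value of PLOD1 was then 1.64 in control cells and 2.24 in PacCele16h cells. With single drugs it was 1.60 in Pac16h, 2.40 in Pac48h, 1.42 in Cele2h and 2.49 in cele16h cells. BNIP3L was at 1.83 in control cells and 2.48 in Pac48h cells at the same total. FAM162A and BNIP3, which are also HIF targets, differed by -1.61 and -1.28 in cele16h cells and by -0.33 and -0.11 at the same total.

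Of 8 pentose phosphate genes, 5, 3, 3, 5 and 0 were lower as deposited in Pac16h, Pac48h, Cele2h, cele16h and PacCele16h cells, and 1, 0, 3, 3 and 1 at the same total. The 3 in cele16h cells (7.95% of all genes) were the transketolase TKT (-1.84, and -1.01 at the same total), the transaldolase TALDO1 (-1.96 and -0.68) and PGLS (-1.66 and -0.65). Of 7 genes of pyruvate entry to mitochondria, 6, 5, 4, 7 and 0 were lower as deposited and 0, 2, 2, 3 and 0 at the same total, and 3 were higher in PacCele16h cells as deposited. In cele16h cells at the same total (7.95%), the 3 were the pyruvate dehydrogenase subunits PDHA1 (-2.40, and -1.22 at the same total) and DLAT (-1.32 and -0.68) and the pyruvate carrier MPC1 (-1.68 and -0.67). The partner of MPC1 in the carrier, MPC2, differed by -1.59 and -0.30 in these cells. DLD, the dehydrogenase subunit with the highest difference, was at 1.22 in PacCele16h cells and 0.53 at the same total.

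PCK2, the mitochondrial enzyme that makes phosphoenolpyruvate from oxaloacetate, was the gene of these lists with the highest difference. Its mean E-value was 1.04 ± 1.28 in control cells, 1.07 ± 1.19 in Pac16h cells, 2.45 ± 1.72 in Pac48h cells, 3.14 ± 1.35 in Cele2h cells, 2.49 ± 1.30 in cele16h cells, and 4.03 ± 1.89 in PacCele16h cells. It was detected in 50.0% of control cells (34.9 to 65.1%) and 96.8% (89.0 to 99.6%) in Cele2h cells. At the same total PCK2 was higher than in control cells by 0.25, 1.66, 2.33, 2.32 and 2.21, where PKM, which uses the same metabolite, differed by -0.81, -0.19, -0.56, -0.70 and -0.34.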

How the data were processed

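Single A2780 cells of 6 conditions were measured by Smart-seq2. Per the methods of the study and the labels, the authors trimmed reads with Trim Galore, aligned them with Bowtie2 to the hg38 transcripts of GENCODE version 28 plus 3 spike-in RNAs, computed TPM by RSEM 1.3.0, divided the TPM by that of the highest spike-in RNA of the cell, removed 34 of 372 cells with low housekeeping gene expression and required detection of a gene in more than 30% of the cells of any condition. The housekeeping filter may have used enzymes described here. The deposited E-values are log2(N/10 + 1), with N the normalized TPM, rounded to 3 decimals, for 9664 genes and 338 cells. A row of cell states predicted by the authors was not used here.

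N was recovered from each E-value. A gene was called higher or lower when the mean E-values of treated and control cells were more than log2 of 1.5 apart (0.585), the size the study used, so differences of low genes are understated. Calls were counted over the 9655 genes past the detection limit. At the same total, the linear values of a cell were scaled to the median total of all cells. Detection means an E-value above 0, with exact Clopper-Pearson 95% intervals that cover counting error only. Read numbers per cell are not known here, no doublet caller was run, and no test was made, since each condition is 1 sample. Spearman's and Pearson's correlations are descriptions over cells.

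The genes named are the 10 enzymes, their isozymes, up to 3 genes with the largest and 3 with the smallest differences in each other list and the 5 genes most like the enzymes, where the mean E-value exceeded 1. Other genes given with values are those that overlap an isozyme, the cell type markers and DLAT, which was chosen after its values were seen. The 10 enzymes, the lists and the 4 comparisons between treatments were chosen with earlier results of these data known. Positions are from GENCODE version 44 on hg38 and promoters from RefSeq. Protein sequences and the isoforms of the genes were not analysed here. The alternatives were 2 other scalings, linear means, medians, a pseudocount of 1, other detection limits, blocks of 96 library indices alone, no GAPDH and cells without wells noted as holding no cell or debris. The steps were tested on simulated data. Versions were matplotlib 3.10.9, scipy 1.17.1, pandas 2.3.3, numpy 2.4.6 and Python 3.11.15.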

Additional observations from a re-analysis of the deposited data

Results flagged for a closer look

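Among the 10 enzymes and their isozymes, 4 genes differed from control cells by more than 1.5-fold in opposite directions in cele16h cells and in PacCele16h cells on the deposited scale, and the difference between the treatments was not tested, since each is 1 sample. PGK1 differed by -1.91 in cele16h cells and by 0.77 in PacCele16h cells. PFKM differed by -0.74 and 0.88, PFKL by -0.65 and 0.64, and ENO3 by -0.76 and 1.17. At the same total per cell none of the 8 differences passed the limit, with PGK1 at -0.56 and 0.08, PFKM at 0.04 and 0.30, PFKL at -0.13 and 0.21, and ENO3 at 0.43 and 0.53. Both comparisons share the control cells. Of the 4 genes, only PGK1 is among the 10 enzymes. On the deposited scale 43.9% of all genes were lower by this limit in cele16h cells and 30.4% higher in PacCele16h cells. The share of all genes that passed both was not counted here. The paper describes a large gene cluster with these opposite directions, so the pattern is not particular to these genes.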

How the results depend on the processing

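The scaling of the cells changed most. With every cell at the same total, the number of enzymes lower by more than 1.5-fold was 4 in place of 8 in Pac16h cells, 1 in place of 7 in Pac48h cells, 5 in place of 8 in cele16h cells and 2 in place of 0 in PacCele16h cells. Over the total of the 9512 genes outside the lists it was 4, 1, 6 and 2. The median difference of the enzymes in cele16h cells went from -1.92 to -0.58 and -0.61 on these scales. That of PacCele16h cells went from 0.23 to -0.22 on both and to -0.030 with medians of E-values, a change of direction. The number of enzymes higher in PacCele16h cells, 1 as deposited, was 0 on both scales, 4 with linear means (PGK1, PFKP, GPI and HK1), 2 with medians and 2 in index block 1 alone.

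Without GAPDH the other 9 enzymes held 0.771% of the total in control cells, 0.494% in Pac16h cells, 0.465% in Cele2h cells and 0.411% in cele16h cells, and their log2 ratio to OXPHOS subunits was -3.25 in control cells, -4.08 in Pac16h cells, -3.88 in Pac48h cells, -4.10 in Cele2h cells, -3.93 in cele16h cells and -3.84 in PacCele16h cells. In every treatment both remained below control cells. Of 340 differences of single enzymes under the alternatives, 321 moved by less than the spread over cells. This spread is the SD over the treated cells and is wide, so a smaller move can still cross the limit or change direction. ALDOA in PacCele16h cells went from 0.24 to -0.46 at the same total, with an SD of 0.94. The count is therefore no measure of stability. Leaving out the well noted as holding no cell changed no number of enzymes past 1.5-fold. No paired analysis was possible because each condition is 1 sample and no result comes from a test. The depth in reads is unknown, so low values of HK1, HK2, PFKP and ALDOC may be failures of detection, and absence of these transcripts was not detectable from these data.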
